A study of Mus musculus with 12 samples.

Results

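Liver holds resident macrophages, the Kupffer cells, among its hepatocytes, and 10 genes that mark these macrophages or carry antigen on MHC class II molecules were followed in whole mouse liver. They were chosen by gene symbol: Clec4f, Cd5l, Marco, Vsig4, C1qa and C1qb as the Kupffer cell genes, and Cd74, H2-Aa, H2-Ab1 and H2-Eb1 as the class II genes. For each symbol the transcript row with the highest mean was used, and the 10 genes are 10 of 22322 symbols in the data and 10 of the 10799 symbols that passed the filter on low values. All 10 passed it.

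Total RNA of 12 livers was sequenced, with 3 mice in each of 4 groups. Mice labelled wild type (WT) were Bmal1 flox/flox animals, in which loxP sites flank exon 8 of Bmal1, and no CRE recombinase is stated for them. For the knockout (KO), the floxed line was bred with animals carrying CRE under a liver-specific promoter, so effects of CRE and of losing Bmal1 cannot be told apart, and Kupffer cells and other cells outside the hepatocyte lineage are not the stated target. All were labelled as 8-week-old C57BL/6 mice, given as males on a C57BL/6J background in the methods, fed ad libitum under a light and dark cycle and then kept in darkness for 2 days. Livers were taken at circadian time 0 (CT0, when the lights would have come on) or at CT12. A label text gives 2 mice per genotype and time, whereas the sample titles give 3 replicates per group, and the titles were used. The labels do not say more about how replicates were drawn, and p-values measure the spread between these samples.

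Kupffer cells sit inside the liver sinusoids, take up particles and opsonised microbes from portal blood, and are a source of C1q. MHC class II molecules are pairs of an alpha and a beta chain that carry peptides made in the endosome to the surface of antigen-presenting cells. Their genes are switched on together by the coactivator CIITA, which docks on a complex of the RFX, CREB and NF-Y factors bound to the X and Y boxes of class II promoters. In mouse liver, Kupffer cells and dendritic cells are well known carriers of class II.

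The promoters of H2-Aa and H2-Eb1 hold the letters of both boxes and are printed for that reason, beside the promoter of C1qb, a Kupffer cell gene whose window does not. The sequences are from RefSeq on GRCm38.p6, run 5′ to 3′ on the strand of the gene, and span 250 bases before to 50 bases after the transcript start. Of the 10 genes, 7 have an entry, and C1qa, Cd74 and H2-Ab1 have none. Capitals mark the pair of GCAAC (the core of the X box) and GATTGG (the Y box, read by NF-Y) in H2-Aa and H2-Eb1. In C1qb they mark GAGGAA (the core read by the macrophage factor PU.1). The windows are chr17:34287774-34288073 on the minus strand for H2-Aa, chr17:34305617-34305916 on the plus strand for H2-Eb1 and chr4:136886151-136886450 on the minus strand for C1qb.
H2-Aa: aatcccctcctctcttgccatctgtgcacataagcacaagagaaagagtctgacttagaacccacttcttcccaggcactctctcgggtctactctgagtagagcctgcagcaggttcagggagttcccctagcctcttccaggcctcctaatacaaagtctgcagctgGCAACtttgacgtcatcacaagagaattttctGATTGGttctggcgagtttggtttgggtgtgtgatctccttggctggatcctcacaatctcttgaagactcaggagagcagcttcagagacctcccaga
H2-Eb1: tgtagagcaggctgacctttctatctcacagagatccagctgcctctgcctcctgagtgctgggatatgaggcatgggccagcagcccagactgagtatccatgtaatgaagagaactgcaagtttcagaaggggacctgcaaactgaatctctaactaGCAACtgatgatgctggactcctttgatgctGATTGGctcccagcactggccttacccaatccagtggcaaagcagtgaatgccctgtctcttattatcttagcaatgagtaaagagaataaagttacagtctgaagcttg
C1qb: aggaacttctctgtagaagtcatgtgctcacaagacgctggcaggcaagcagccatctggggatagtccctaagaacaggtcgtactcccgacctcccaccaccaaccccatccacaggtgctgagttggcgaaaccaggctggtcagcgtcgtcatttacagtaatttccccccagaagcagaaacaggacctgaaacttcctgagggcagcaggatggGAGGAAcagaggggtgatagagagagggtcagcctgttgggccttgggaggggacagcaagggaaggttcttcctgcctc

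Positions are counted from the transcript start, with -1 for the base before it. GCAAC began at -81 and GATTGG at -49 in H2-Aa, and at -91 and -60 in H2-Eb1. A further GATTGG of H2-Eb1, at -35 on the opposite strand, is not part of the pair and is not capitalised. The same pair on 1 strand, with starts 29 to 33 bases apart, was also found in H2-Oa, H2-Ob and H2-Eb2 and not in H2-DMa, H2-DMb1 or H2-DMb2, which are further class II genes. The spacing limits were set with these promoters in view, both strands were searched, and the pair occurred in 36 of 32851 RefSeq promoters of this length (0.11%). Singly, GCAAC occurred in 35.2% and GATTGG in 16.1% of them. GAGGAA occurred in 28.3% of all promoters and, among these genes, in Cd5l, Marco, Vsig4 and C1qb, where it began at -30. The E-box CACGTG, the element that BMAL1 and CLOCK bind, occurred in 7.15% of promoters and its letters were in none of the 7 windows. AGGTCA, a half-site of nuclear receptors such as REV-ERB and ROR, occurred in 16.3% of promoters and in those of Clec4f and H2-Eb1. Such matches describe letters in a window and were not tested as binding sites.

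Values are RPKM, reads scaled to transcript length and to sequencing depth. No batch or run date is named in the labels. The depth recovered from the values was 11460000 to 19020000 reads per sample, highest in WT at CT0 (16900000 to 19020000), and the 10 genes rested on 46 to 2561 reads per sample. Arntl, which encodes BMAL1, was at 16.3, 15.7 and 15.7 RPKM in WT at CT0 and at 5.92, 5.73 and 7.45 RPKM in KO at CT0, a log2 fold change of -1.21 (limma, adjusted p = 0.00058). At CT12 it was higher in KO (3.59 to 4.37 RPKM) than in WT (0.68 to 1.26 RPKM), by 1.29 (limma, adjusted p = 6.3e-05). The deposited value covers a whole transcript and not the deleted exon.

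The first comparison was between the times of day, averaged over both genotypes. Of the 10 genes, 7 were lower at CT12 than at CT0: Clec4f, Vsig4, C1qa and C1qb of the Kupffer cell genes, and Cd74, H2-Aa and H2-Ab1 of the class II genes. Their levels at CT12 were 0.636 to 0.725 of those at CT0 on the scale of log2(RPKM + 1), on which all fold changes are given and which understates changes of low genes. Cd5l, Marco and H2-Eb1 did not pass the test. Of all tested genes, 10.5% were lower at CT12 by the same rule (limma with Benjamini-Hochberg adjustment over 10799 genes, threshold 0.05), and 8 of the 10 genes had an unadjusted p below 0.05. The median log2 fold change was -0.51 over the 10 genes and -0.034 over all tested genes. The count of 7 fell to 2 (C1qb and H2-Aa) without the filter on low values or without moderation. It fell to 3 (C1qb, H2-Aa and H2-Ab1) without WT CT0 replicate 1, WT CT12 replicate 3, KO CT0 replicate 2 or KO CT12 replicate 1, and to 4 without KO CT12 replicate 2. In whole liver, fewer cells of a type and less RNA per cell cannot be told apart.

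**Figure D1:**
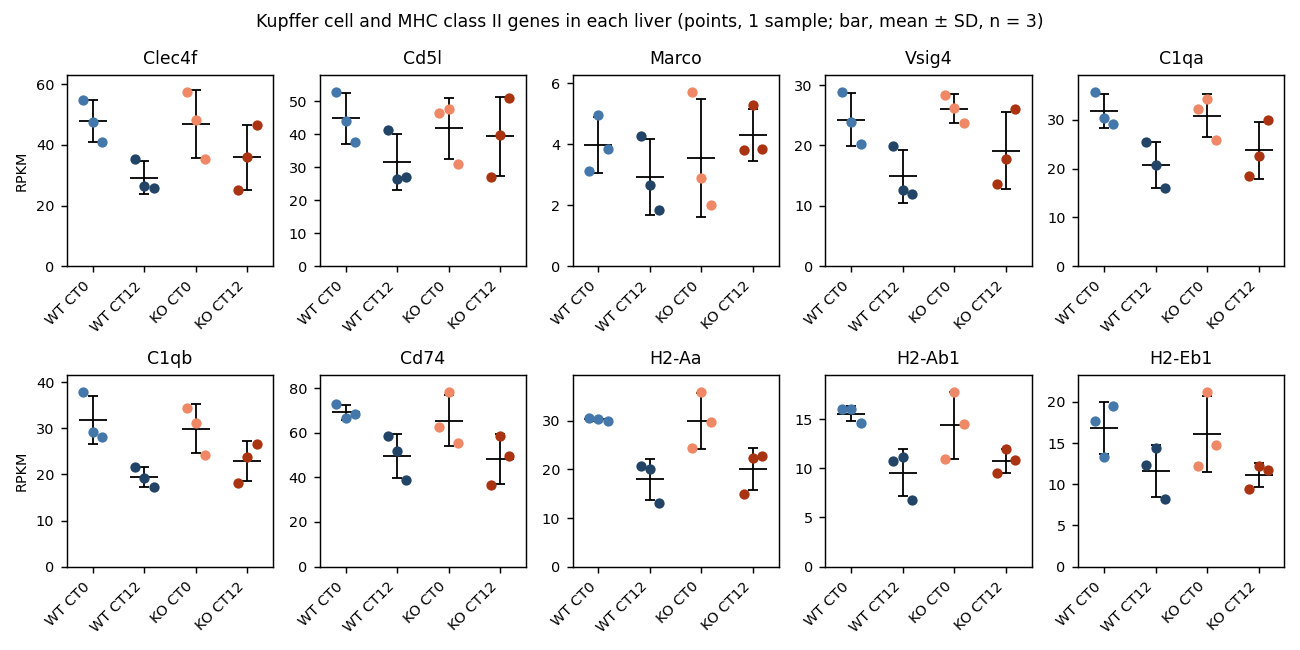
RPKM of the 10 genes (y axis, linear, 1 panel per gene) in WT and KO liver at CT0 and CT12 (x axis). Points are single samples and bars are the mean ± SD (n = 3). In WT, 7 of the 10 genes had every CT12 sample below every CT0 sample, and in KO H2-Aa alone did.

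Clec4f encodes a C-type lectin receptor that in mouse liver marks Kupffer cells. It lies on chromosome 6 (NCBIM37, 83594536 to 83606181, minus strand) and is counted over a transcript of 2471 bases in 7 exons. Its RPKM were 54.9, 47.7 and 41.0 in WT at CT0, 35.5, 26.4 and 25.9 in WT at CT12, 57.5, 48.4 and 35.3 in KO at CT0 and 25.3, 35.9 and 46.7 in KO at CT12. The WT groups did not overlap, whereas 2 of the 3 KO samples at CT12 lay above the lowest KO sample at CT0. The log2 fold change was -0.54 ± 0.16 (SE; limma, adjusted p = 0.036).

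Vsig4 encodes the complement receptor CRIg, with which Kupffer cells capture bacteria coated with C3b. It lies on the X chromosome (93442542 to 93488777, minus strand). Its RPKM were 28.9, 23.9 and 20.2 in WT at CT0 and 20.0, 12.7 and 12.0 in WT at CT12. The KO livers had 28.4, 26.2 and 23.7 RPKM at CT0, and 13.7, 17.8 and 26.1 RPKM at CT12. A single KO sample, replicate 3 at CT12, reached the range of CT0. The log2 fold change was -0.58 ± 0.16 (limma, adjusted p = 0.029).

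C1qa and C1qb encode chains of C1q, the recognition molecule of the classical complement pathway, and are neighbours on chromosome 4 (136451832 to 136454718 and 136436044 to 136442102, both on the minus strand). C1qa was at 35.7, 30.4 and 29.2 RPKM in WT at CT0, 25.4, 20.7 and 15.9 in WT at CT12, 32.3, 34.3 and 25.9 in KO at CT0 and 18.5, 22.7 and 30.0 in KO at CT12. C1qb was at 37.8, 29.3 and 28.2 RPKM in WT at CT0, 21.6, 19.2 and 17.3 in WT at CT12, 34.5, 31.2 and 24.2 in KO at CT0 and 18.2, 23.7 and 26.7 in KO at CT12. Both were separated between the times in WT and overlapped in KO. Their log2 fold changes were -0.50 ± 0.13 (limma, adjusted p = 0.025) and -0.53 ± 0.12 (limma, adjusted p = 0.011). The ratio of C1qa to C1qb RPKM stayed between 0.918 and 1.18 in the 12 samples.

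Cd5l encodes a secreted lipid-binding protein of macrophages that protects them from apoptosis. It was among the most abundant Kupffer cell genes, at 44.7 ± 7.66 RPKM (SD, n = 3) in WT at CT0, 31.6 ± 8.47 in WT at CT12, 41.7 ± 9.31 in KO at CT0 and 39.3 ± 11.9 in KO at CT12. WT groups overlapped through replicate 1 at CT12 (41.4 RPKM, against 37.5 for the lowest CT0 sample). The log2 fold change was -0.30 ± 0.17 (limma, adjusted p = 0.25). Marco, a scavenger receptor, was the lowest of the 10 genes per length, from 1.84 RPKM in WT at CT12 to 5.71 RPKM in KO at CT0 and with 46 to 187 reads per sample. Its samples overlapped in every pair of groups, and the log2 fold change was -0.04 ± 0.20 with a 95% confidence interval from -0.475 to 0.401 (limma, adjusted p = 0.92).

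Among the class II genes, H2-Aa showed the largest difference and the clearest separation. It encodes the alpha chain of the A molecule and lies on chromosome 17 (34419710 to 34424736, minus strand). It was at 30.6, 30.4 and 29.9 RPKM in WT at CT0, 20.8, 20.0 and 13.2 in WT at CT12, 24.4, 35.9 and 29.7 in KO at CT0 and 15.0, 22.4 and 22.8 in KO at CT12. Every CT12 sample lay below every CT0 sample within each genotype, and the log2 fold change was -0.65 ± 0.14 (limma, adjusted p = 0.0082). H2-Aa has 2 transcript rows that overlap in reads, and the other row (1132 bases) had 29.2 ± 1.26 RPKM in WT at CT0 and 17.7 ± 4.01 in WT at CT12.

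H2-Ab1, the beta chain that pairs with H2-Aa, lies beside it (34400154 to 34406363, plus strand). It was at 16.1, 16 and 14.7 RPKM in WT at CT0, 10.8, 11.1 and 6.77 in WT at CT12, 10.9, 17.8 and 14.5 in KO at CT0 and 9.51, 12.0 and 10.9 in KO at CT12. The log2 fold change was -0.52 ± 0.13 (limma, adjusted p = 0.019). KO groups overlapped through replicate 1 at CT0, the KO sample with the lowest class II sum at that time. The ratio of H2-Aa to H2-Ab1 RPKM was 1.95 ± 0.163 (SD) over the 12 samples.

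H2-Eb1 encodes the beta chain of the E molecule, for whose alpha chain the C57BL/6 strain carries no active gene. It lies on chromosome 17 (34442828 to 34453144, plus strand) and was at 17.6, 13.3 and 19.5 RPKM in WT at CT0, 12.4, 14.4 and 8.16 in WT at CT12, 12.2, 21.2 and 14.8 in KO at CT0 and 9.48, 12.2 and 11.7 in KO at CT12. Groups overlapped in both genotypes, by 1 sample in each case. The log2 fold change was -0.49 ± 0.16 with an unadjusted p of 0.0092, and limma gave an adjusted p of 0.053.

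Cd74 encodes the invariant chain, which fills the groove of new class II molecules and guides them to the endosome. It was the highest of the 10 genes per length, at 72.7, 66.4 and 68.4 RPKM in WT at CT0, 58.5, 51.6 and 39.0 in WT at CT12, 62.8, 78.1 and 55.5 in KO at CT0 and 36.7, 58.7 and 49.4 in KO at CT12. The times did not overlap in WT and overlapped by 1 sample in KO, and the log2 fold change was -0.46 ± 0.13 (limma, adjusted p = 0.03). Its 3 transcript rows share reads and differed little, with means of 64.6 to 69.2 RPKM in WT at CT0.

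The order of the mean levels per length over the 12 samples was Cd74 (58.1 RPKM), Clec4f (40.0), Cd5l (39.3), C1qa (26.8), C1qb (26), H2-Aa (24.6), Vsig4 (21.1), H2-Eb1 (13.9), H2-Ab1 (12.6) and Marco (3.69). The steps from Clec4f to Cd5l, between neighbours from C1qa down to Vsig4, and from H2-Eb1 to H2-Ab1 were smaller than the SD within most groups. The groups differed in spread, with a coefficient of variation for H2-Aa of 1.25% in WT at CT0 and 23.3% in WT at CT12.

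Within WT alone, C1qb (log2 fold change -0.68; limma, adjusted p = 0.023), H2-Aa (-0.75; limma, adjusted p = 0.029) and H2-Ab1 (-0.68; limma, adjusted p = 0.036) were lower at CT12, against 7.88% of all tested genes. All 10 fold changes were negative, from -0.75 to -0.37 (Marco), and 8 had an unadjusted p below 0.05. Of the 10799 tested genes, 6606 had a negative fold change. In 7 of the 10 genes every WT sample at CT12 was below every one at CT0, a pattern found in 22.9% of all tested genes. The count of 3 rests on single WT samples, since it fell to 0 without WT CT0 replicate 1 or without WT CT12 replicate 3, and to 1 without WT CT0 replicate 2 or 3. It rose to 6 without KO CT12 replicate 1 or 3, and was 0 without the filter or without moderation and 5 with the 6 WT samples alone.

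Within KO alone, none of the 10 genes passed the test (limma), against 1.32% of all tested genes that were lower at CT12. Unadjusted p was below 0.05 for 3 of them (Cd74, H2-Aa and C1qb), and a fit without moderation of the variances also gave 0. In 9 genes the fold change was negative, from -0.56 (H2-Aa) to -0.10 (Cd5l), and that of Marco was 0.30. Of the 10799 tested genes, 5432 had a negative fold change. H2-Aa alone had separate times in KO, which 11.4% of tested genes had, and it alone did in both genotypes, as did 5.68% of tested genes.

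**Figure D2:**
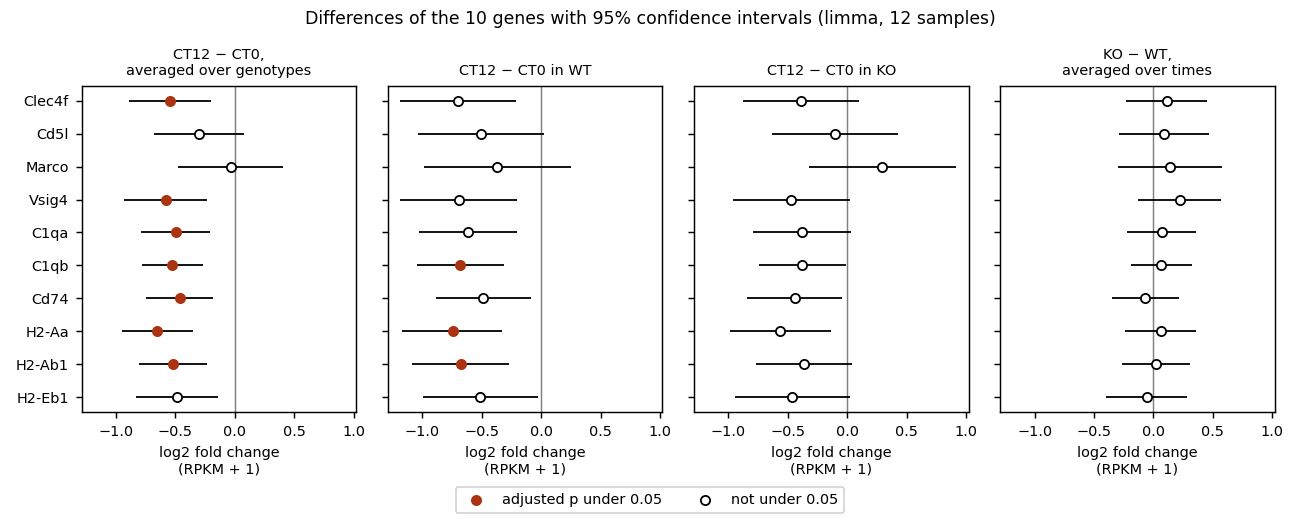
Log2 fold change of RPKM + 1 (x axis) for the 10 genes (y axis) in 4 comparisons, with 95% confidence intervals as lines. Filled points passed an adjusted p of 0.05 (limma). The 7 filled points of the left panel lie between -0.65 and -0.46, and none of the points for KO against WT is filled.

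Whether the time difference depended on genotype was tested by the interaction. None of the 10 genes passed it (limma, 1.49% of all tested genes did; 0 with an unadjusted p below 0.05 and 0 without moderation). The interaction was positive in all 10, that is, the difference was less negative in KO, from 0.04 (Cd74) to 0.67 (Marco), with a median of 0.27, whereas the median over all tested genes was 0.067. It was negative in 4165 of the 10799 tested genes. The 10 genes were measured in the same livers, so their signs are not independent. Intervals were wide: for H2-Aa the term was 0.18 with a 95% confidence interval from -0.412 to 0.778, and for C1qb 0.30 from -0.212 to 0.816. A smaller or an equal fall in KO could not be separated with 3 mice per group. The signs of Cd74 and H2-Eb1 turned under another scaling of the samples.

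Between genotypes, averaged over the times, none of the 10 genes differed (limma; 11.5% of all tested genes did; 0 with an unadjusted p below 0.05 and 0 without moderation). Log2 fold changes of KO against WT ran from -0.07 (Cd74) to 0.22 (Vsig4), with adjusted p from 0.43 to 0.94. The 95% confidence intervals of all 10 lay between -0.398 and 0.575. For Clec4f, the difference was 0.11 with an interval from -0.234 to 0.454, and for H2-Aa 0.06 from -0.237 to 0.358. All 6 Kupffer cell genes had a positive and 2 of the 4 class II genes a negative value, where 4168 of the 10799 tested genes had a negative one.

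At CT0 alone, 0 of the 10 genes differed between KO and WT (limma; 1.86% of tested genes; 0 with an unadjusted p below 0.05 and 0 without moderation), and the values ran from -0.20 (Marco) to 0.11 (Vsig4). The WT and KO means at CT0 were 47.9 ± 6.90 and 47.0 ± 11.2 RPKM (SD, n = 3) for Clec4f and 30.3 ± 0.38 and 30.0 ± 5.76 RPKM for H2-Aa. At CT12, 0 differed as well (limma; 10.5% of tested genes; 0 with an unadjusted p below 0.05 and 0 without moderation), with values from -0.05 (Cd74) to 0.47 (Marco). There the means were 29.2 ± 5.38 in WT and 36 ± 10.7 RPKM in KO for Clec4f, and 18 ± 4.19 and 20.1 ± 4.37 RPKM for H2-Aa. The 4 comparisons between groups share samples and are not independent of each other.

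The Kupffer cell genes and the class II genes moved partly apart from mouse to mouse. In KO CT0 replicate 1, all 6 Kupffer cell genes lay above their group mean (mean deviation 0.257 on the log2 scale) and all 4 class II genes below it (-0.25). In KO CT0 replicate 2 the class II genes were highest, with a mean deviation of 0.314 against 0.063 for the Kupffer cell genes. WT CT12 replicate 3 (-0.25 and -0.391) and KO CT12 replicate 1 (-0.347 and -0.275) were below their group mean in all 10 genes. The summed RPKM of the 4 class II genes was 0.514 to 0.899 of that of the 6 Kupffer cell genes, with group means from 0.634 ± 0.108 (KO at CT12) to 0.754 ± 0.126 (WT at CT12), which differ by about their SD.

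**Figure D3:**
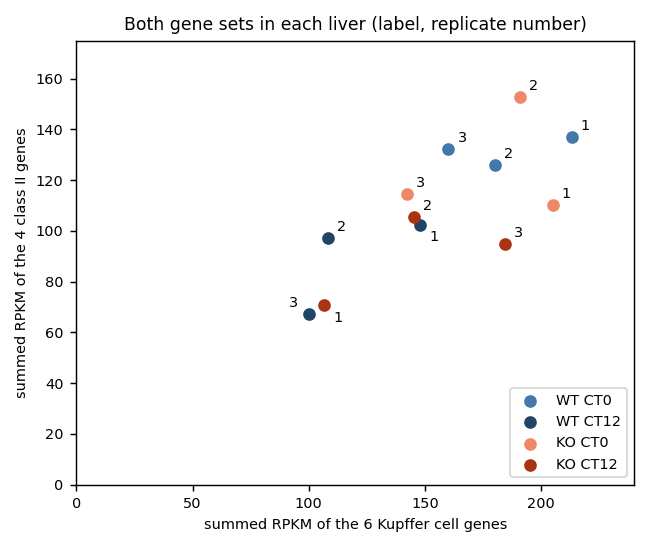
Summed RPKM of the 4 class II genes (y axis) against that of the 6 Kupffer cell genes (x axis) in each of the 12 livers, coloured by group and labelled with the replicate number. WT livers at CT0 lie at 160.0 to 213.1 and 126.1 to 137.1, and WT livers at CT12 at 99.95 to 148.0 and 67.1 to 102.4, without overlap on either axis, whereas KO livers overlap between the times on the x axis.

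Further genes known from the same cells were taken from marker lists. Whether a listed gene is made by that cell type alone was not tested, here or for the lists below, so other liver cells may contribute to its value. Of 25 other Kupffer cell genes tested, 8 were lower and 1 was higher at CT12 (limma, averaged over genotypes). The median log2 fold change over the 25 genes was -0.39. Lower were, among others, Emr1, which encodes the macrophage surface receptor EMR1 (-0.57; limma, adjusted p = 0.016), Lyz2, a lysozyme (-0.63; limma, adjusted p = 0.03), Mpeg1, a pore-forming protein of phagocytes (-0.57; limma, adjusted p = 0.007), and Il18bp, the binding protein of IL-18 (-0.40; limma, adjusted p = 0.0033). Slc40a1, the iron exporter ferroportin, and Nr1h3, the nuclear receptor LXR alpha, had higher levels than the other genes of the list, at 42.0 and 40.4 RPKM on average, with fold changes of 0.01 and -0.05, and neither passed the test.

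Between genotypes, 1 of the 25 genes, Mpeg1, was higher and 1 was lower in KO on average (limma). Mpeg1 was at 16.6 ± 3.57 and 10.1 ± 1.87 RPKM in WT at CT0 and CT12. In KO it was at 26.9 ± 2.91 and 19.1 ± 2.25 RPKM, higher by 0.78 (limma, adjusted p = 0.0009). At CT12, 2 of the 25 genes were higher and 1 was lower in KO (limma). Id3, a transcriptional regulator, was also higher there, by 0.995 (limma, adjusted p = 0.026). Its RPKM in WT were 31.1 ± 8.85 at CT0 and 13.7 ± 1.15 at CT12, against 26.2 ± 9.57 and 28.8 ± 6.59 in KO.

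In the class II pathway, 15 of 22 other genes were tested, of which 5 were lower and 0 higher at CT12, with a median of -0.21. They were the lysosomal proteases Ctss (-0.47; limma, adjusted p = 0.041) and Ctsl (-0.38; limma, adjusted p = 0.007), the thiol reductase Ifi30 (-0.34; limma, adjusted p = 0.027), the peptide exchanger subunit H2-DMa (-0.40; limma, adjusted p = 0.019) and Rfxank (-0.71; limma, adjusted p = 0.00062). Rfxank encodes a subunit of the RFX complex that binds the X box. It was at 5.06 ± 0.686 and 1.92 ± 0.225 RPKM in WT at CT0 and CT12 and at 7.61 ± 0.439 and 5.71 ± 1.22 RPKM in KO, and was higher in KO by 0.85 (limma, adjusted p = 0.00016), as was Ctsl by 0.59 (limma, adjusted p = 0.00039). The class II members did not share that difference between genotypes. Ciita stayed below 1 RPKM in every sample and was not tested, with means of 0.710 ± 0.132 and 0.418 ± 0.153 in WT at CT0 and CT12 and 0.577 ± 0.104 and 0.343 ± 0.063 in KO.

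Genes of the class I pathway and of the interferon response were compared because interferon gamma induces class II. Of 19 tested genes, 9 were lower and 0 higher at CT12 (limma), with a median of -0.30. Tap1, the peptide transporter, fell by 0.67 on the log2 scale (limma, adjusted p = 0.015) and Irgm1, an interferon-induced GTPase, fell by 0.43 (limma, adjusted p = 0.0072). The highest genes of the list, B2m, H2-K1 and H2-D1, had fold changes of -0.04, -0.16 and -0.09 and did not pass the test. H2-K1, a class I heavy chain, was lower in KO by -0.35 (limma, adjusted p = 0.0072).

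Markers of other cells outside the hepatocyte lineage were also lower at CT12. Of 18 genes of the sinusoidal endothelium, 8 were lower and 0 higher (limma), all 18 fold changes were negative and the median was -0.41. Of the 10799 tested genes, 6128 had a negative fold change. Cdh5, the cadherin of endothelial junctions, fell by 0.59 on the log2 scale (limma, adjusted p = 0.0039) and Lyve1, a hyaluronan receptor, fell by 1.12 (limma, adjusted p = 0.0079). Of 14 genes of stellate cells, the vitamin A storing cells of the sinusoid wall, 8 were lower and 0 higher (median -0.43), among them Dcn (-0.48; limma, adjusted p = 0.0057) and Pdgfrb (-0.82; limma, adjusted p = 0.00033). Of 5 tested genes of bile duct cells, 2 were lower and 0 higher (median -0.49). Of 16 hepatocyte genes, 0 were lower and 2 (Hnf4a and Tat) higher, with a median of -0.10. Within WT alone, 3 of these 16 were lower and 1 was higher at CT12, and within KO 0 were lower and 0 higher (limma). Between genotypes, 0 of the 18 endothelial and 0 of the 14 stellate genes differed on average, and of 5 bile duct genes Spp1 was higher in KO by 1.36 (limma, adjusted p = 0.00017). Of the 16 hepatocyte genes 3 differed: Alb was lower in KO by -0.99 (limma, adjusted p = 3.6e-05), and Asgr1 and Apoa2 were higher by 0.30 and 0.29 (limma, adjusted p = 0.014 and 0.021).

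The summed RPKM of the endothelial list was 250.3 to 301.1 in WT at CT0, 186.6 to 207.1 in WT at CT12, 291.6 to 300.7 in KO at CT0 and 145.0 to 324.6 in KO at CT12. That of the stellate list was 231.9 to 297.0, 160.7 to 187.3, 271.3 to 324.6 and 200.8 to 260.7 in the same order. The hepatocyte list summed to 78190 to 88840, 65780 to 76860, 61850 to 71980 and 58730 to 65580, also in that order. The 6 Kupffer cell genes divided by the endothelial list gave 0.485 to 0.751 over the 12 samples, with means of 0.663 ± 0.0788 and 0.601 ± 0.105 in WT at CT0 and CT12 and 0.607 ± 0.111 and 0.637 ± 0.0872 in KO. The 4 class II genes divided by the same list gave 0.477 ± 0.0552 and 0.452 ± 0.0965 in WT and 0.426 ± 0.0724 and 0.407 ± 0.102 in KO. Relative to the endothelial list, both sets differed between the times by less than the SD within groups. The part of these other cells in the time difference of the 10 genes was not tested.

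**Figure D4:**
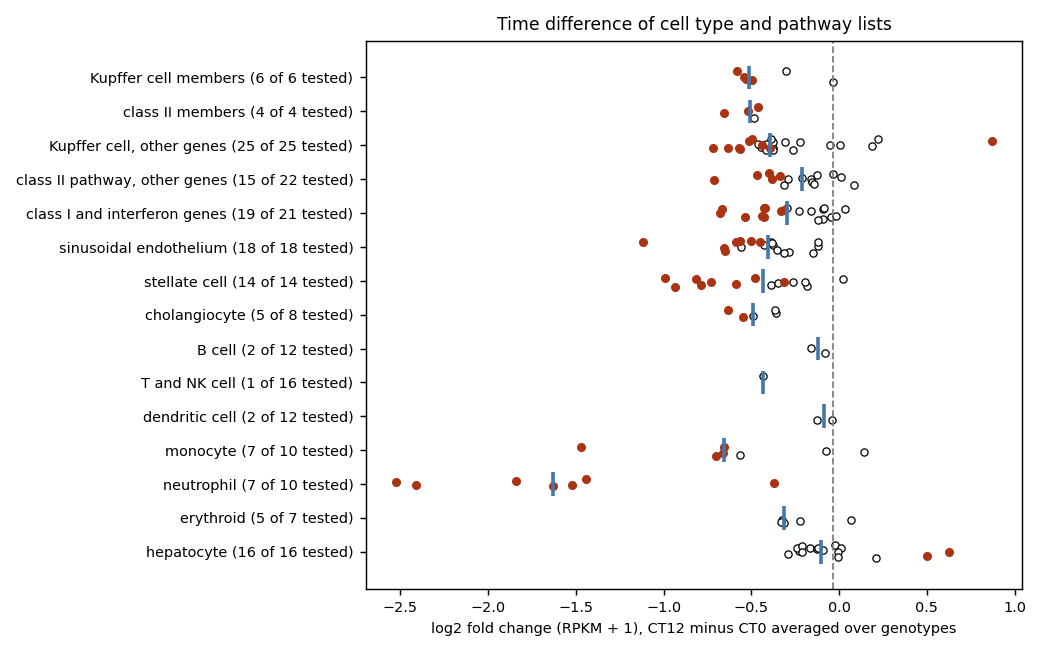
Log2 fold change of RPKM + 1 between CT12 and CT0, averaged over genotypes (x axis), for the tested genes of each list (y axis; vertical position within a list is jitter). Filled points passed an adjusted p of 0.05 (limma), thick bars are list medians and the dashed line is the median of all tested genes. The Kupffer cell, endothelial and stellate medians lie between -0.51 and -0.39, the hepatocyte median at -0.10 and the neutrophil median at -1.63.

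Cells that enter the liver from blood are a further source of immune transcripts. All 7 tested neutrophil genes were lower at CT12 (limma), with a median of -1.63, and 5 of them were higher in KO, with a median over the 7 of 1.23. S100a8, a calcium-binding protein of granulocytes, was at 23.8 ± 15.7 and 2.55 ± 0.579 RPKM in WT at CT0 and CT12 and at 64.7 ± 20.3 and 11.8 ± 6.29 RPKM in KO (SD, n = 3). It was lower at CT12 by -2.53 (limma, adjusted p = 0.00027) and higher in KO by 1.65 (limma, adjusted p = 0.0043). The sum of the neutrophil list was 32.9 to 116.6 RPKM in WT at CT0, 6.93 to 9.68 in WT at CT12, 106.1 to 226.0 in KO at CT0 and 19.3 to 47.5 in KO at CT12. Ly6g, which defines the lineage, stayed below 1 RPKM in every sample and was at 0 in all WT samples at CT12. Of 7 tested monocyte genes 4 were lower at CT12 and 0 higher, among them Ccr2 (-0.66; limma, adjusted p = 0.0016), with means of 1.06 and 0.432 RPKM in WT and 1.57 and 0.481 RPKM in KO, and the sum of the list, 143.0 to 207.5 RPKM over the samples, was mostly Fn1, which did not pass the test.

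Of the other carriers of class II, B cells and dendritic cells had markers at low levels. Of 12 B cell genes 10, including Cd79a and Ms4a1, and of 12 dendritic cell genes 9, including Flt3 and Itgax, stayed below 1 RPKM in every sample, and none was at 0 throughout. Their summed RPKM was 2.17 to 6.55 and 4.94 to 7.99, against 67.1 to 152.9 for the 4 class II genes. These sums do not give the share of class II RNA that came from B cells or dendritic cells, which was not tested. The B cell sum was 4.45 to 5.76 in WT at CT0, 2.17 to 2.73 in WT at CT12, 3.28 to 5.16 in KO at CT0 and 4.21 to 6.55 in KO at CT12, and the dendritic cell sum was 5.91 to 6.99, 4.94 to 5.76, 6.57 to 7.99 and 5.19 to 6.47. Of 16 T and NK cell genes, 11 stayed below 1 RPKM, and the sum was 3.49 to 8.65 RPKM. Of the 2 B cell, 2 dendritic cell and 1 T and NK cell genes tested, 0 differed between the times (limma). Red cell genes, a sign of the blood left in the tissue, summed to 160.2 to 380.0 RPKM in WT at CT0, 107.5 to 189.8 in WT at CT12, 212.7 to 223.2 in KO at CT0 and 245.9 to 307.3 in KO at CT12, and 0 of 5 tested differed between the times on average. Within WT, Hba-a2 and Hbb-b2 were lower at CT12 by -0.94 and -0.99 (limma, adjusted p = 0.039 and 0.048), and at CT12 both were higher in KO than in WT (limma, adjusted p = 0.013 and 0.02). Another of the 5 went the other way: averaged over the times, 1 was lower and 0 higher in KO (limma). These globin genes have near-identical copies, and reads could be split between them, so the values of single copies are uncertain. The part of blood cells in the values of the 10 genes was not tested.

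Genes whose pattern over the 12 samples was most like that of the Kupffer cell genes were found by Pearson's r with the mean z-score of the 6 genes. They were Cd68 (r = 0.985), Csf1r (0.978), Ctss (0.974), Emr1 (0.964) and Cfp (0.95), that is, a macrophage glycoprotein, the receptor for CSF1, cathepsin S, the receptor EMR1 and properdin. After centring each gene within its group, so that the group differences no longer entered, they were Emr1 (0.982), Cd68 (0.979), Csf1r (0.972), Folr2 (0.964) and Slc15a3 (0.96). For the 4 class II genes they were Tap1 (0.931), Sptlc2 (0.911), Iqgap1 (0.909), Cxcl16 (0.904) and Ablim1 (0.897), and after centring Setdb1, Stard8, Ttc39a, Ric8 and Ccdc61 (0.927 to 0.943). Centring left 3 of the 5 names in place for the Kupffer cell genes and 0 for the class II genes. Some of the named genes were low, with means of 0.479 (Ttc39a), 1.87 (Ccdc61), 2.2 (Slc15a3), 2.38 (Stard8) and 2.49 RPKM (Cxcl16). These correlations describe 12 samples of 4 groups, and carry no test.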

How the data were processed

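The authors deposited RPKM values of 46585 transcripts with gene symbols, in a table for each sample. The submitters' processing notes name mm9, TopHat2 and bedtools 2.19.1. Positions and lengths came from GENCODE vM1 on NCBIM37, which held 95.5% of the rows. Depth was recovered from the steps of RPKM times length, with 95.37% to 96.25% of low values within 0.05 of a whole read. Genes were tested where any group mean reached 1 RPKM, as log2(RPKM + 1) by limma 3.58.1 in R 4.3.3 (4 group means, 12 samples, eBayes with trend), tested on simulated data. Members, marker lists and tests were chosen with earlier results of these data known. Named from each list were at most 4 genes with the highest mean and 4 with the smallest adjusted p per comparison. The values of 2 genes of the marker lists are not reported here. Groups came from sample titles. Same-numbered replicates correlated by 0.008 on average (-0.066 to 0.139). Alternatives were a pseudocount of 0.1, other filters, quantile and median-of-ratios scaling, summed transcript rows, no moderation, only the 6 samples compared, a replicate block, and each sample left out. Python 3.11.15, pandas 2.3.3 and matplotlib 3.10.9 were used.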

Additional observations from a re-analysis of the deposited data

How the results depend on the processing

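In both comparisons with called genes the direction was kept under all alternatives and leave-outs for the genes called. Averaged over genotypes, the count of genes lower at CT12 was 7 and became 2 without the filter or without moderation (C1qb and H2-Aa, called under all 20 alternatives), and 3 to 7 when 1 sample was left out. It was 3 without WT CT0 replicate 1, WT CT12 replicate 3, KO CT0 replicate 2 or KO CT12 replicate 1, and 4 without KO CT12 replicate 2; C1qb, H2-Aa and H2-Ab1 were called in each of the 12 leave-outs. In WT the count was 3 and became 0 without the filter or without moderation, 5 with only the 6 samples compared, and 0 to 6 when 1 sample was left out (6 without KO CT12 replicate 1 or 3). With the replicate block the counts were 6 averaged over genotypes, where Clec4f had an adjusted p of 0.054 (limma), and 3 in WT, with 0 elsewhere. The numbers did not pair the samples. All other counts were 0 under each alternative. Under quantile and median-of-ratios scaling the sign turned for H2-Ab1 in KO against WT averaged over times (-0.016 and -0.025) and for H2-Eb1 in the interaction (-0.015 and -0.03), under quantile scaling for Marco between times (0.013), and under median-of-ratios scaling for Cd74 in the interaction (-0.042). The cause was not tested. Leaving out 1 sample turned the sign only of differences that had not passed the test. For KO minus WT averaged over times, the log2 fold change over the 12 leave-outs ran from -0.011 to 0.21 for Cd5l, -0.024 to 0.263 for Marco, -0.017 to 0.149 for C1qa, -0.15 to 0.02 for Cd74, -0.039 to 0.153 for H2-Aa, -0.079 to 0.112 for H2-Ab1 and -0.164 to 0.028 for H2-Eb1. For CT12 minus CT0 averaged over genotypes, the log2 fold change over the 12 leave-outs ran from -0.164 to 0.124 for Marco. For the interaction, the log2 fold change over the 12 leave-outs ran from -0.013 to 0.44 for Vsig4, -0.118 to 0.224 for Cd74, -0.015 to 0.369 for H2-Aa and -0.166 to 0.256 for H2-Eb1. For KO minus WT at CT0, the log2 fold change over the 12 leave-outs ran from -0.199 to 0.146 for Clec4f, -0.227 to 0.086 for Cd5l, -0.518 to 0.058 for Marco, -0.011 to 0.237 for Vsig4, -0.126 to 0.07 for C1qa, -0.191 to 0.055 for C1qb, -0.225 to 0.019 for Cd74, -0.165 to 0.105 for H2-Aa, -0.284 to 0.043 for H2-Ab1 and -0.287 to 0.088 for H2-Eb1. For KO minus WT at CT12, the log2 fold change over the 12 leave-outs ran from -0.209 to 0.132 for Cd74, -0.046 to 0.338 for H2-Aa, -0.027 to 0.294 for H2-Ab1 and -0.246 to 0.128 for H2-Eb1. For CT12 minus CT0 in KO, the log2 fold change over the 12 leave-outs ran from -0.309 to 0.134 for Cd5l. With 46 to 187 reads, Marco was the least precise of the 10 genes.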
